A study of Mus musculus with 6 samples.

Results

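Mesothelial epicardial cells, the epithelial layer that covers the surface of the heart, were examined among the cells other than cardiomyocytes of mouse ventricles. A cell barcode was taken as a member when it held at least 3 UMIs (unique molecular identifiers, each standing for 1 captured RNA molecule) of Msln, Upk3b, Upk1b, Lrrn4 and Krt19 together. At least 2 of these 5 genes had to be detected, and Cdh5, Csf1r and Ptprc, which mark endothelial cells, macrophages and all leukocytes, could add up to 1 UMI at most. Barcodes also needed at least 800 UMIs, at least 200 detected genes and at most 20% mitochondrial UMIs. This rule found 91 members among 31139 barcodes. The 5 rule genes chose the members, so their levels are given as a description only.

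The mice were males of 8 to 12 weeks, either wild-type C57BL/6JRj (WT) or Trpm4 knockout B6.Cg-Trpm4tm1.2-PG (KO). They were sampled 24 h after a sham operation, or 24 h or 72 h after the LAD (a main coronary artery) was tied off, which causes an infarct. Each of the 6 groups was 1 library, made from the sorted live cells of 4 pooled mice, and no sham library of 72 h was analysed here. With 1 library per group there is no replicate check and no test, all intervals are 95% intervals that cover counting error only, and mice, operations and library preparation cannot be told apart from genotype or time.

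The epicardium is a single sheet of mesothelium with keratin filaments, uroplakins and mesothelin on a basement membrane. In the embryo its cells express the transcription factor Wt1, and some leave the sheet by epithelial-to-mesenchymal transition and give rise to cardiac fibroblasts and mural cells. In the adult the layer is largely quiescent, and injury is known to reactivate Wt1 and to thicken the sheet into a layer that secretes matrix and growth factors.

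The WT and KO sham libraries held 8 and 14 members. At 24 h after ligation there were 5 WT and 4 KO members, and at 72 h there were 9 WT and 51 KO members. The KO 72 h library stood apart in depth. In the other 5 libraries the members' median depth was 15127 to 32538 UMIs, and 2 members, 1 in KO sham and 1 in KO 24 h, had fewer than 5000 UMIs. In the KO 72 h library 47 of 51 members had fewer than 5000 UMIs, with a range of 945 to 3807 and a median of 1737, and only 4 were deeper.

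Many of these 47 shallow barcodes went against the label. Marker UMIs of monocytes and macrophages outnumbered those of mesothelium in 32 of them, and fibroblast marker UMIs did so in 34, while 6 had neither. Their 8 macrophage markers summed to 7234 CPM (UMIs scaled to a total of 1000000 over the summed members), against 166 CPM in the 4 deep members of the same library and 17.0 to 55.9 CPM in the members of the other 5 libraries. Rule-gene UMIs were also more frequent there in fibroblast cells, but hardly or not in endothelial cells and neutrophils. Fibroblast cells, chosen by at least 5 UMIs over 3 or more of Pdgfra, Col1a1, Col3a1 and Dcn, held a rule-gene UMI in 11.2% of 563 barcodes at a median depth of 1428 UMIs in the KO 72 h library. In the other 5 libraries the share was at most 1.56%, at median depths of 8745 to 18512 UMIs. Endothelial cells of the KO 72 h library, at a median depth of 2218 UMIs, held one in 0.498% of 201 barcodes. In the other 5 libraries their share was 0.575 to 1.84%. Neutrophils, chosen by at least 20 UMIs of S100a8 and S100a9 and a UMI of Csf3r, held one in 0.477% of 419 barcodes. Their share elsewhere was 0 to 0.475%. Of 3428 other barcodes of like depth in the KO 72 h library, 3.18% held a rule-gene UMI. Of its 51 members, 15 had just 3 rule UMIs, and 27 further barcodes missed the rule at 2 UMIs, against 1 such barcode in all other libraries. The part of free RNA or of mixed barcodes in the 47 was not tested, and KO 72 h levels below are given for all 51 members and for the 4 deep ones.

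**Figure D1:**
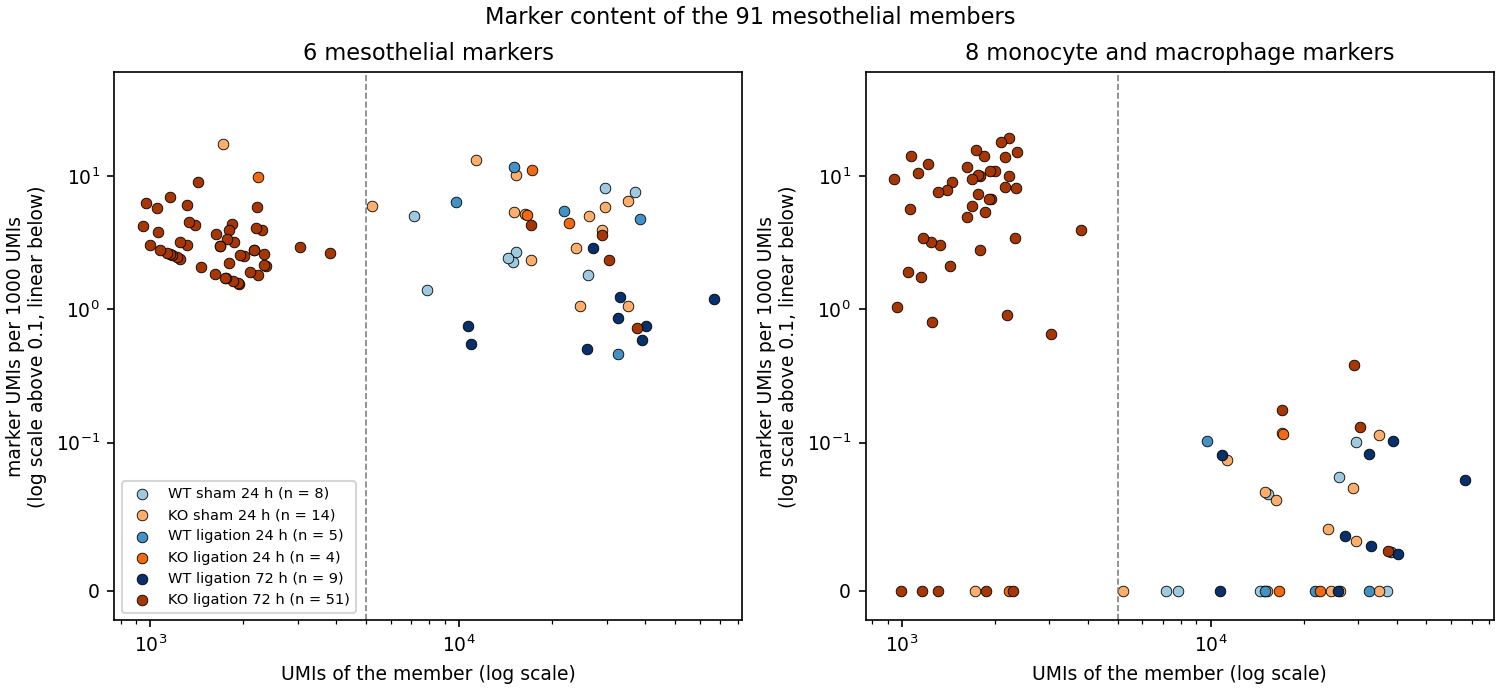
Marker UMIs per 1000 UMIs of each of the 91 members against its total UMIs (log scale), for the 6 mesothelial markers (left) and 8 monocyte and macrophage markers (right). Each point is 1 member, coloured by library, and the dashed line marks 5000 UMIs. The shallow KO 72 h members lie to the left of the line, and most hold macrophage markers at levels that no deeper member has.

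Other members also carried markers of other cells. All 4 KO members of 24 h were among the barcodes with the highest Scrublet doublet scores of their library, against 1 member in the other 5 libraries. A WT member at 24 h after ligation (32667 UMIs) held 0 UMIs of Upk3b, Lrrn4 and Wt1, but 76 UMIs of Csf3 and 92 of F3, and it held 1 UMI of the fibroblast markers. A KO sham member (24543 UMIs) held 68 UMIs of Rgs5, a pericyte gene. Another KO sham member (23931 UMIs) held 611 UMIs of fibroblast markers. Counts of different genes without the first 2 are given beside the main ones. No member barcode was shared between libraries.

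Markers of mesothelium and of fibroblasts were both present in the deep members. The 8 fibroblast markers summed to 2629 CPM in WT sham, 5924 in KO sham, 2327 in WT 24 h, 5353 in KO 24 h, 9971 in WT 72 h and 6033 CPM in deep KO 72 h members. In the fibroblast cells of the same libraries, which 4 of these markers chose, they summed to 16152 to 39980 CPM. Fibroblast marker UMIs outnumbered those of the 6 mesothelial markers in 5 of 8 WT sham, 7 of 14 KO sham, 0 of 5 WT 24 h, 2 of 4 KO 24 h and 9 of 9 WT 72 h members, and in 4 of the 4 deep KO 72 h members. So by these markers the label was mixed, above all at 72 h, and fibroblast RNA in these barcodes was not tested. The fibroblast genes were uneven. Col1a1, Col3a1 and Dcn, of the extracellular matrix, were found in the members of each library. Cardiomyocyte markers summed to at most 26.3 CPM in deep KO 72 h members and to 0 to 14.0 CPM in members of the other libraries. Shallow KO 72 h members held more, up to 11 UMIs in a barcode of 2338 UMIs. Gsn, an actin-severing protein that was abundant in the fibroblast cells (14746 CPM in WT sham), stood at 13.1 CPM in WT sham members and at 2012 CPM in KO sham members, where 64.6% of its UMIs lay in 1 member. Dpt, a matrix protein of fibroblasts, was at 0 UMIs in the members of the WT libraries, at 66.6 CPM in KO sham members and at 987 CPM in WT sham fibroblast cells. Cdh1, the classical epithelial cadherin, was at 0 UMIs in 4 of the 6 libraries and at 7.01 and 5.13 CPM in KO sham and KO 72 h members (8.76 in the deep ones). Neutrophil markers stood at 375 to 382 CPM in the members of both 24 h ligation libraries, where other barcodes held 28973 (WT) and 44414 CPM (KO). In the KO 72 h library 41 of 51 members held a neutrophil marker UMI, with up to 17 in a shallow barcode of 1160 UMIs (14.7 per 1000).

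**Figure D2:**
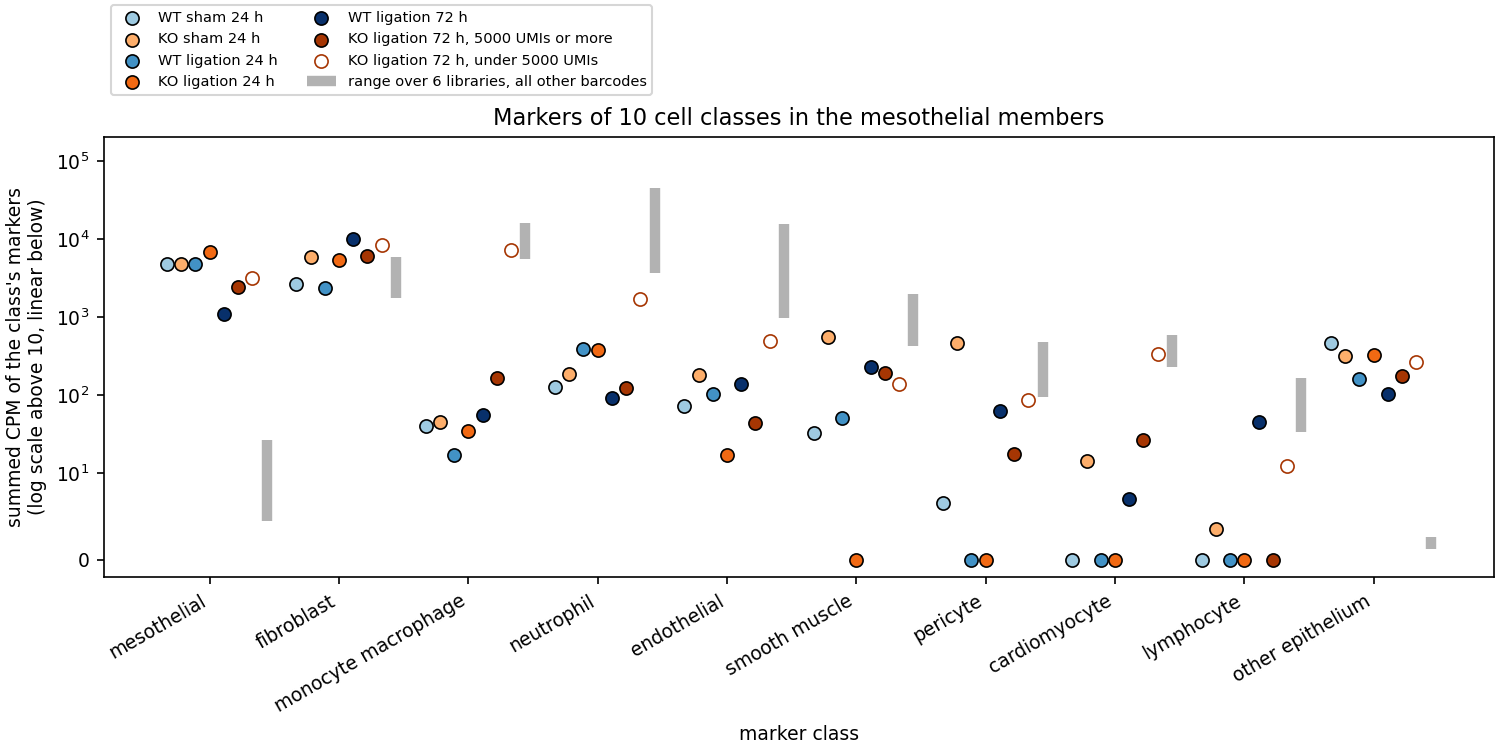
Summed CPM (log scale above 10) of the markers of 10 cell classes in the members of each library, with the KO 72 h members split at 5000 UMIs. Grey bars span all other barcodes of the 6 libraries. Mesothelial and other epithelial markers lie above the grey bars in each group of members, and macrophage markers reach the other barcodes' level only in the shallow KO 72 h members.

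The members were rare in each library. Their share of all filtered barcodes was 0.148% (0.0640 to 0.292) in WT sham and 0.238% (0.130 to 0.399) in KO sham. At 24 h after ligation it was 0.153% (0.0496 to 0.356) in WT and 0.0587% (0.0160 to 0.150) in KO. At 72 h it was 0.202% (0.0923 to 0.383) in WT and 0.960% (0.715 to 1.26) in KO. These shares depend on how many leukocytes each library holds, so they do not give the size of the epicardium. In KO, the share at 24 h after ligation was 0.179 percentage points below that of sham (Newcombe interval of the difference -0.345 to -0.0462), while in WT the difference was 0.00450 points (-0.164 to 0.221). For each 100 fibroblast cells, there were 2.16 members in WT sham, 3.15 in KO sham, 2.99 in WT and 2.45 in KO at 24 h after ligation. The KO library at 72 h exceeded WT by 0.758 points (0.466 to 1.07) with all members. Of barcodes with 5000 UMIs or more, members were 4 of 1075 (0.372%) in KO and 9 of 2726 (0.330%) in WT, a difference of 0.0419 points whose interval spans both directions (-0.331 to 0.643). For each 100 fibroblast cells there were 7.03 members in WT and 9.06 in KO at 72 h, and 8.33 and 7.55 when members and fibroblast cells both had 5000 UMIs or more. So a higher share in KO was not detectable among the deep barcodes.

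The genes that set members most apart from all other barcodes were those of a simple epithelium. Krt8, which with its partner Krt18 forms the keratin filaments of simple epithelia, had a median ratio over the 6 libraries of 433 to the other barcodes, with KO 72 h taken by its deep members. Krt18 had a ratio of 255, and the 4 rule genes Lrrn4, Upk1b, Upk3b and Krt19 had ratios of 420, 304, 266 and 253. Genes outside the rule followed, among them Myrf (237), Cxadr (209), a junction protein that also serves as a virus receptor, Nkain4 (186), Lgals7 (156), Spon2 (44.2), Wt1 (41.1) and the prostacyclin synthase Ptgis (27.7). These genes are correlated with the rule, so the ratios describe the members and test nothing.

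Krt8 lies on chromosome 15 at 101996698 to 102004482 and Krt18 beside it at 102028180 to 102032027 (GRCm38). Wt1 lies on chromosome 2 at 105126529 to 105173616, and Saa3 on chromosome 7 at 46711998 to 46715700.

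Wt1 was found in the members of each library. It stood at 118 CPM (WT sham), 133 (KO sham), 144 (WT 24 h), 222 (KO 24 h), 129 (WT 72 h) and 210 CPM (KO 72 h; 228 in the deep members). It was detected in 7 of 8, 10 of 14, 4 of 5, 3 of 4 and 8 of 9 members, and in 15 of 51 at KO 72 h (4 of the 4 deep ones). The counting intervals of the ratio of 24 h ligation to sham included 1 in both genotypes (0.593 to 2.52 in WT, 0.813 to 3.19 in KO), as did that of 72 h to 24 h in WT (0.491 to 1.69). Outside members Wt1 was at 11.9 to 31.8 CPM in endothelial cells and at 0.446 to 7.36 CPM in fibroblast cells. Tbx18, another transcription factor of the embryonic epicardium, was at 131, 73.6 and 84.9 CPM in WT sham, KO sham and WT 24 h members, at 0 UMIs at KO 24 h, and at 3.49 CPM at WT 72 h. Aldh1a2, which makes retinoic acid in the epicardium, ranged from 153 CPM (WT 24 h) to 349 CPM (KO 72 h; 403 in the deep members).

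The members were not uniform within a library. In WT sham, Krt8 ranged over the 8 members from 383 to 3824 CPM with a median of 760, and in KO sham over 14 members from 204 to 4106 with a median of 2798. The 2 WT sham members with the most Krt8, at 3824 and 3204 CPM, were also the deepest. In KO sham this was not so: the member at 4106 CPM had 16317 UMIs, and a member of 35057 UMIs held 11 UMIs of Krt8. Krt14, a keratin of stratified epithelia, was found in 3 of 8 WT sham and 8 of 14 KO sham members, at 354 and 252 CPM. Sbsn, a secreted protein of epithelia, ranged from 0 to 5439 CPM over WT sham members. Wt1 had a narrower range, from 0 to 255 CPM in WT sham and 0 to 353 CPM in KO sham. Members of a library share 1 preparation, so these ranges describe cells and are no error of the library.

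Comparisons between libraries used the UMIs summed over members, and a gene was counted as different when it was at least 2-fold apart with at least 20 UMIs in the pair. No pair of libraries had 20 members on each side, so pairs with at least 4 were used, a choice made after the counts of members were known. At this depth 1 barcode can carry a gene, and in 4 of the 7 comparisons the count of different genes was more than 1.5 times lower when each gene's richest barcode was left out.

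In sham hearts 1 of 17 mesothelial genes was at least 2-fold apart between KO and WT members by summed UMIs, against 10.3% of all genes. Several interferon, inflammatory and metal-binding genes were higher in KO. Of 3184 genes, 328 (10.3%) were at least 2-fold apart, 177 (5.56%) higher and 151 (4.74%) lower in KO, and without the Rgs5-rich KO member the count was 288. Of 17 mesothelial genes outside the rule that could be measured, 0 were higher and 1, the Wnt agonist Rspo1, was lower in KO, with a median log2 ratio of -0.11 (-0.02 over all genes). With members thinned to 800 UMIs the median was 0.63, over 3 genes. Krt8 was at 1991 CPM in KO and 2104 in WT by summed UMIs, but its median over the members, given above, was higher in KO. C3, the central complement component and a strongly expressed gene of these cells, was at 4020 CPM in KO and 3015 in WT, a ratio of 1.33 (1.20 to 1.49). Of 8 measured interferon-induced genes 4 were higher in KO and 0 lower, with a median log2 ratio of 0.87, or 0.26 by the mean CPM per barcode. Isg15, a ubiquitin-like protein, was at 144 CPM in KO and 45.9 in WT (3.13-fold, 1.39 to 8.27), and the other 3 were Gbp2, Xaf1 and Psmb8. Of 13 inflammatory genes 4 were higher (Cxcl1, Csf1, Lcn2 and Vcam1) and 0 lower, with a median of 0.32. Of the KO UMIs of Cxcl1 and Vcam1, 85.2% and 66.7% lay in 1 member each. Lgals7, a galectin of epithelia, was at 1535 CPM in KO against 347 in WT (4.42-fold, 3.32 to 5.99), in 14 of 14 KO and 3 of 8 WT members. The metallothionein Mt1 was at 3253 against 931 CPM (3.49-fold, 2.93 to 4.20), and the iron-binding protein Lcn2 at 1539 against 485 CPM (3.17-fold, 2.47 to 4.12). Herpud1, of the unfolded protein response, was at 158 against 19.7 CPM, and the cell cycle inhibitor Cdkn1c was lower in KO, at 35.1 against 262 CPM. The members of the 2 libraries overlapped in Mt1 and Lcn2.

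At 24 h after ligation, the metallothioneins, which bind zinc and copper, were higher than in sham in both genotypes. Mt1 was at 931 CPM in WT sham and 7840 at 24 h (8.42-fold, 7.05 to 10.1), and at 3253 in KO sham and 6921 at 24 h (2.13-fold, 1.89 to 2.39). Mt2 was at 498 and 3194 CPM in WT (6.41-fold, 5.0 to 8.32) and at 1279 and 2915 in KO (2.28-fold, 1.89 to 2.74). The WT members did not overlap in Mt2: the 8 sham members reached 1118 CPM at most and the 5 at 24 h began at 2082. In KO they overlapped, since 1 of the 4 members at 24 h, a barcode of 2228 UMIs, held none. Overlap was looked at for chosen genes only, and the share of all genes without overlap between so few members was not counted. Mt1 was also higher in the other barcodes of the libraries, at 677 and 1558 CPM in WT sham and 24 h, and at 614 and 1671 in KO.

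In WT, 504 of 2107 genes (23.9%) differed between 24 h and sham, 235 (11.2%) higher and 269 (12.8%) lower. Without the Csf3-rich WT member the count was 342. In KO, 559 of 2490 genes (22.4%) differed, 187 (7.51%) higher and 372 (14.9%) lower, and without the Rgs5-rich KO sham member the count was 534. Among the inflammatory genes, 5 of 9 were higher and 1 lower in WT, with a median log2 ratio of 1.02 (-0.04 over all genes), and 6 of 12 were higher and 1 lower in KO, with a median of 0.85 (-0.07). Of the 5 in WT, Csf3 rested on the single member named above. Icam1, a leukocyte adhesion molecule, was at 78.7 and 170 CPM in WT sham and 24 h (2.16-fold, 1.01 to 4.85), and at 98.1 and 239 CPM in KO (2.43-fold, 1.18 to 4.78). Vcam1, another adhesion molecule, was 2.16-fold higher in KO (1.28 to 3.56). Lcn2 was at 3273 CPM in KO at 24 h and at 646 in WT, and in other barcodes at 1461 and 854 CPM. Ccl2, a monocyte chemoattractant, was at 903 CPM in KO at 24 h, but 86.8% of these UMIs lay in 1 member, and without it the log2 ratio to sham was -0.19.

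Of the mesothelial genes outside the rule, 0 of 16 were higher and 3 lower at 24 h in WT, and 6 of 16 were higher and 2 lower in KO. Krt8 was at 2140 CPM in WT and 2165 in KO at 24 h, with ratios to sham of 1.02 (0.859 to 1.20) and 1.09 (0.890 to 1.32). In KO 1 member held 83 UMIs of Krt8 at 24 h, and the others held 37, 7 and 0. Krt18 was 1.53-fold higher in WT (1.26 to 1.87) and 4.62-fold higher in KO (3.78 to 5.66). In KO 71.0% of its UMIs at 24 h came from 1 member. Dmkn, a secreted protein of epithelia, was lower in both genotypes, at 2465 and 425 CPM in WT and at 2278 and 801 in KO. Of the matrix genes, 6 of 17 were lower and 1 higher in WT, and 8 of 19 were lower and 1 higher in KO. Col1a1, of fibrillar collagen, was at 695 CPM in WT sham and 204 at 24 h, a log2 ratio of -1.77, and at 662 and 375 CPM in KO, a log2 ratio of -0.82. Between the genotypes at 24 h, 502 of 1368 genes (36.7%) differed, and 306 without the Csf3-rich member, with only 5 WT and 4 KO members behind them. Clu, a secreted chaperone, was at 682 CPM in KO and 93.4 in WT.

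**Figure D3:**
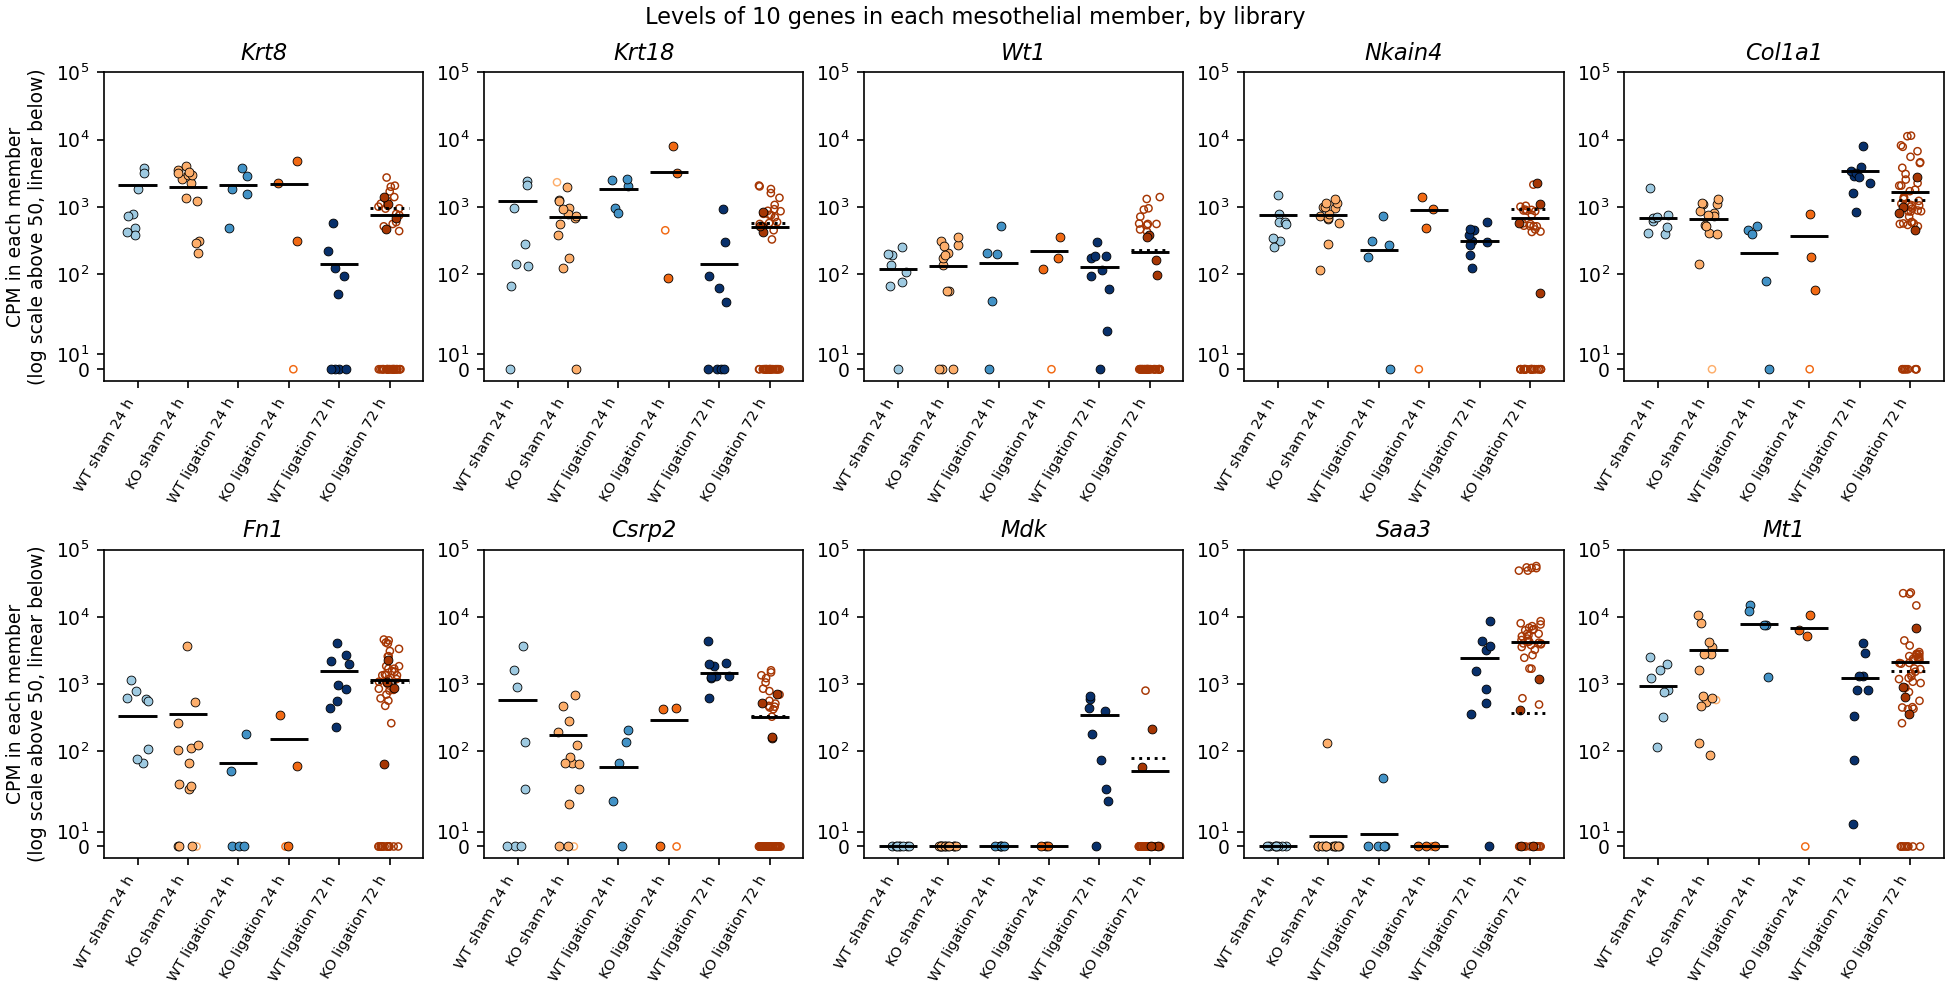
CPM of 10 genes in each member, by library (log scale above 50 CPM, linear below). Filled points are members of 5000 UMIs or more and open points are shallower, the solid line is the level of all summed members, and the dotted line that of the deep KO 72 h members. Krt8 and Krt18 are lowest in the WT 72 h members, Col1a1, Fn1 and Csrp2 are highest there, and Saa3 is found almost only at 72 h.

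The 72 h library was compared with that of 24 h within each genotype, so these ratios share the 24 h library with those against sham. In WT members, of 2772 genes tested, 1107 (39.9%) were at least 2-fold apart, 602 (21.7%) higher and 505 (18.2%) lower at 72 h. Without the Csf3-rich member of 24 h the count was 913. The epithelial genes were lower. Krt8 was at 143 CPM against 2140 at 24 h, a log2 ratio of -3.90 (interval of the ratio 0.0469 to 0.0933), and Krt18 was also at 143 CPM against 1869. Krt8 was detected in 5 of 9 members at 72 h and in 5 of 5 at 24 h. The highest member at 72 h held 575 CPM and the lowest at 24 h held 490, so that the groups overlapped slightly. Msln was at 38.4 CPM against 1954, which is a description only, because Msln helped to choose the members. Single members held at most 110 CPM at 72 h and at least 214 at 24 h, the latter in the Csf3-rich member. Muc16, the mucin that binds mesothelin, was at 0 UMIs in the 9 members at 72 h and at 170 CPM at 24 h, at least 16.2-fold lower with a count of 3 in place of 0. Cldn15, a claudin of tight junctions, was at 97.8 against 340 CPM, and Ezr, which links membrane to actin, at 283 against 1792 CPM. Of 16 measured mesothelial genes outside the rule, 9 were lower and 2, Clu and Slpi, were higher, with a median log2 ratio of -1.63 (0.08 over all genes). Of 8 junction genes 5 were lower, and the 2 that were higher were Cdh2 and Cdh11, cadherins of mesenchymal cells.

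Many genes of matrix and of mesenchymal cells were higher in these WT 72 h members. Of 21 matrix genes 11 were higher and 2 lower, with a median log2 ratio of 1.01, and of 11 mesenchymal genes 7 were higher and 1 lower, with a median of 1.92 (1.22 without the Csf3-rich member). The matrix list summed to 24619 CPM against 9122 at 24 h, with medians over the members of 23406 and 9224. The mesenchymal list summed to 23802 CPM against 14083. Its median over the members was not higher, at 16220 CPM at 72 h (range 6075 to 40117) and 18078 at 24 h. Col1a1 was at 3419 CPM against 204 (16.8-fold, 11.2 to 26.3), with no overlap: the 9 members at 72 h held 849 CPM or more and the 5 at 24 h held 512 or less. Fn1, fibronectin, was at 1551 against 67.9 CPM (22.8-fold, 11.5 to 53.2), also without overlap, from 231 CPM upward at 72 h and up to 184 CPM at 24 h. The 2 lower matrix genes were Col4a1 and Col4a2, of basement membrane collagen, and Col4a1 was at 41.9 against 280 CPM. Csrp2, a LIM domain protein of muscle-like and mesenchymal cells, was at 1467 against 59.5 CPM (24.7-fold, 11.9 to 61.7) and did not overlap. How many of all genes lack overlap between 9 and 5 members was not counted. Lgals1, a galectin of mesenchymal cells, was at 12461 against 739 CPM, and the members overlapped. In WT sham members these genes stood at 695 CPM (Col1a1), 334 (Fn1), 577 (Csrp2) and 1724 (Lgals1).

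Fibroblast markers were high in these 9 members, with 7 of the 8 detected. They summed to 9971 CPM, against 2327 at 24 h and 20376 CPM in the WT 72 h fibroblast cells. Pdgfra, a receptor that marks cardiac fibroblasts, was found in 8 of the 9 (182 CPM) and in 1 of 5 at 24 h (8.49 CPM), and stood at 140 CPM in WT 72 h fibroblast cells, which it helped to choose. Col3a1 was at 4195 CPM in the members and 6501 in the fibroblast cells, and Dcn at 2050 and 3467 CPM. Gsn and Dpt were further apart. Gsn was at 115 CPM in the members and 2499 in the fibroblast cells, and Dpt was at 0 UMIs and 246 CPM. Wt1 was at 129 CPM in the members and 7.36 in the fibroblast cells, and Nkain4, detected in 9 of 9 members, was at 311 CPM. The rule genes made up 0.946 UMIs per 1000 in these members, against 4.56 at 24 h, and 2 of 9 members held all 5 of them. The part of fibroblast RNA in the difference was not tested.

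A further group of genes was found in the WT 72 h members and hardly at the earlier times. Saa3, an acute-phase serum amyloid A protein, was at 2434 CPM in 8 of 9 members, against 8.49 CPM (1 UMI) at 24 h and 0 UMIs in sham. Other barcodes of the 3 WT libraries held 409 (sham), 822 (24 h) and 330 CPM (72 h) of Saa3, so that the members lay below the other cells at the earlier times and above them at 72 h. Mdk, the heparin-binding growth factor midkine, was at 346 CPM in 8 of 9 members and at 0 UMIs in the 31 members of sham and 24 h in both genotypes, at least 13.6-fold higher than at WT 24 h. Other barcodes held 10.3 CPM of Mdk at WT 72 h. Stmn1, a tubulin-binding protein of dividing cells, was at 409 CPM in 9 of 9 members and at 0 UMIs at 24 h, at least 16.0-fold higher, and 4 of 7 measured proliferation genes were higher (Ccnb2, Birc5, Stmn1, H2afz) with 0 lower. The whole proliferation list summed to 3039 CPM at 72 h, 1325 at 24 h and 1829 in WT sham. Its median over the members was 1741, 1263 and 1863 CPM in the same order, so the typical member was not above sham. WT 72 h fibroblast cells held 3974 CPM of the list. Clu was at 2064 against 93.4 CPM (22.1-fold, 12.3 to 44.5), and 52.8% of its UMIs were in 1 member. Lower at 72 h were Mt1 (1247 against 7840 CPM), Mt2 (370 against 3194), Lcn2 (21.0 against 646) and C3 (1271 against 3771 CPM, 0.337-fold, 0.293 to 0.388).

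In KO members, 495 of 1919 genes (25.8%) differed between 72 h and 24 h, 328 (17.1%) higher and 167 (8.70%) lower. With the 4 deep members at 72 h against all 4 at 24 h, 307 of 1323 genes (23.2%) differed, 179 (13.5%) higher and 128 (9.67%) lower. Krt8 was at 759 CPM against 2165 (log2 ratio -1.51), and at 972 CPM in the deep members (log2 ratio -1.16). The 4 members at 24 h held 83, 37, 7 and 0 UMIs of Krt8, and the members of the 2 times overlapped. Krt18 was at 498 against 3290 CPM, and at 569 in the deep members. Col1a1 was at 1636 against 375 CPM (4.36-fold, 2.83 to 7.06) and at 1278 in the deep members (3.41-fold, 2.17 to 5.61). Fn1 was at 1159 against 153 CPM (7.56-fold, 3.91 to 16.7) and at 1086 in the deep members (7.08-fold, 3.61 to 15.8). Of 19 matrix genes 9 were higher and 1 lower, with a median log2 ratio of 0.90 (0.02 over all genes), and of 10 mesenchymal genes 6 were higher and 1 lower, with a median of 1.53. With the deep members these counts were 7 and 1 of 14, and 5 and 0 of 9. The summed lists differed little. The matrix list summed to 18128 CPM at 72 h (17153 in the deep members) and 16791 at 24 h. The mesenchymal list summed to 17564 CPM (19876 in the deep members) and 17900 at 24 h. With members thinned to 800 UMIs the matrix median was -0.046, over 10 genes. Mt1 and Mt2 were lower, at 2139 against 6921 CPM (1567 in the deep members) and at 600 against 2915 CPM (447), and Lcn2 at 472 against 3273 CPM (8 UMIs in the deep members). Stmn1 was at 201 CPM in 4 of 4 deep members and at 0 UMIs in the KO members of 24 h.

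Saa3 was at 4278 CPM in the 51 KO members and at 0 UMIs in the 4 at 24 h, but it was spread unevenly. The 47 shallow barcodes held it at 9810 CPM, and the 4 deep members at 368 CPM, where 2 of the 4 had any. Other barcodes of that library held 441 CPM.

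At 72 h the KO members held more of the epithelial genes than the WT members by summed UMIs. The rule genes made up 2.51 UMIs per 1000 in all KO members, 2.19 in the deep ones and 0.946 in WT. The rule asks for a fixed number of UMIs, so a shallow barcode must hold a higher share of rule genes to be a member. The epithelial genes are correlated with the rule, and how far the choice of members sets their difference was not tested. Of 3258 genes, 635 (19.5%) were at least 2-fold apart, 381 (11.7%) higher and 254 (7.80%) lower in KO, and with deep KO members 558 of 2738 (20.4%), 307 (11.2%) higher and 251 (9.17%) lower. Krt8 was at 759 CPM in KO and 143 in WT (5.30-fold, 3.73 to 7.69), and at 972 CPM in the deep KO members (6.79-fold, 4.70 to 9.96). Krt18 was at 498 and 143 CPM (3.47-fold, 2.39 to 5.14), and at 569 in deep members. With members thinned to 800 UMIs, Krt18 was at 17 UMIs in KO and 4 in WT and its log2 ratio was -0.42, the opposite direction, while Krt8 was at 17 and 0 UMIs. Each of the 4 deep KO members held 470 CPM of Krt8 or more, and the 9 WT members ranged from 0 to 575, so that the groups overlapped. Of 18 mesothelial genes outside the rule, 13 were higher and 1, Clu, was lower in KO, with a median log2 ratio of 1.41 (0.02 over all genes). With deep members 9 of 15 were higher and 2 lower, with a median of 1.59. Nkain4 was at 946 CPM in deep KO members and 311 in WT (3.04-fold, 2.28 to 4.07), and C3 at 2714 and 1271 CPM (2.14-fold, 1.83 to 2.49), and 68.1% of the deep members' C3 UMIs lay in 1 of them. Without members holding markers of other cell types the ratio of C3 was below 1.

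Several genes that were high in WT 72 h members were lower in KO. Mdk was at 51.3 CPM in KO and 346 in WT (log2 ratio -2.75), and at 78.8 CPM in the deep members. Csrp2 was at 323 (333 in the deep members) and 1467 CPM, and Clu at 359 (254) and 2064 CPM. Wnt4, a Wnt ligand, was at 56.4 (17.5) and 276 CPM, and Des, the muscle intermediate filament desmin, at 5.13 (8.76) and 161 CPM. In the other direction, Myl7, an atrial myosin light chain found in these members at sham too (505 CPM in WT, 235 in KO), was at 267 CPM in KO (245 in the deep members) and 3.49 in WT. Saa3 had opposite directions by depth: 1.76-fold higher in KO with all members (1.59 to 1.95), and at 368 against 2434 CPM with the deep ones. Genes of the response to tissue dissociation, such as the immediate early genes, were lower in KO in 7 of 18 cases and higher in 1, with a median log2 ratio of -0.93, and with deep members in 12 of 17 cases and 0, with a median of -2.37. Fos, an immediate early transcription factor, was at 169 CPM in KO, 87.6 in deep KO and 622 in WT members, and 47.2% of the WT UMIs lay in 1 member. In the other barcodes Fos was at 789 CPM in KO and 683 in WT.

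Interferon-induced genes were higher in KO in 7 of 15 cases and lower in 0, with a median log2 ratio of 1.0, and with the deep members in 8 and 1 of 15, with a median of 1.02. Without the members that hold markers of other cell types, the interferon list had 6 measured genes and a median of -0.29. Complement and antimicrobial genes were higher in KO in 6 of 11 cases and lower in 0, with a median of 1.08, and 4 of 6 MHC genes were higher. With the deep members 3 of 10 complement genes were higher and 2 lower, and 0 of 4 MHC genes were higher and 1 was lower. Macrophage markers, at 3093 CPM in all KO members against 55.9 in WT, moved with these lists, and their part was not tested.

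**Figure D4:**
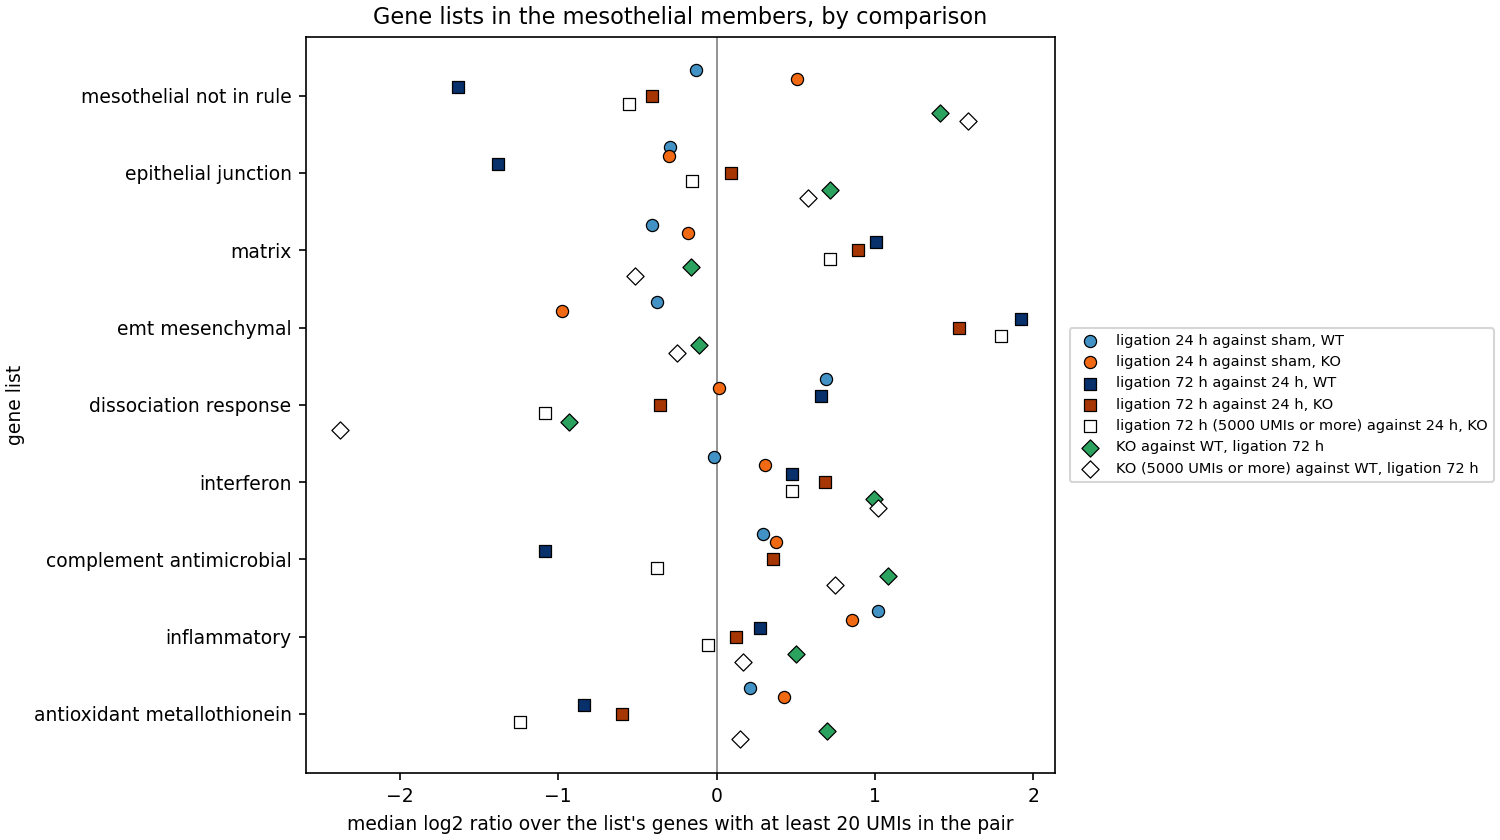
Median log2 ratio of 9 gene lists (rows) in 7 comparisons of members (symbols), over the genes with at least 20 UMIs in the pair. Circles compare 24 h after ligation with sham, squares compare 72 h with 24 h, diamonds compare KO with WT at 72 h, and white symbols use only the KO 72 h members of 5000 UMIs or more. The mesothelial list lies at -1.63 for WT 72 h against 24 h and at 1.41 for KO against WT at 72 h, and both squares of the matrix and mesenchymal lists lie above 0.

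Trpm4, the calcium-activated cation channel gene that the KO mice lack, was hardly seen in these cells. There was 1 UMI over all 91 members, in a WT 72 h member. Other barcodes held 8.86, 5.50 and 4.24 CPM in the WT libraries of sham, 24 h and 72 h, and 6.11, 3.46 and 2.61 CPM in the KO libraries. Which part of the gene the allele lacks is not given in the sources used here, so counts from the 3′ end do not check the genotype. Whether Trpm4 is expressed in the members could not be seen at this depth.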

How the data were processed

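RNA of single cells was counted in 6 libraries, 1 per group and 4 pooled mice each. The deposited matrices hold raw UMI counts per gene and barcode, and per the file headers they come from Cell Ranger 6.0.0. The build mm10 is named in the submitters' processing notes. The counts were read with Python 3.11.15, numpy 2.4.6, scipy 1.17.1 and pandas 2.3.3, and figures were drawn with matplotlib 3.10.9.

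The UMIs of a library's members were summed and scaled to CPM. A ratio has an exact conditional Poisson interval, a share a Clopper-Pearson interval and a difference of shares a Newcombe interval, all at 95%. A count of 0 was replaced by 3 for a bound. A gene counted as different at 2-fold or more with at least 20 UMIs in the pair. The ratios and their intervals were tried on simulated Poisson counts. These had no variation between members, so the trial does not cover genes carried by 1 barcode. The design asked for 20 members per library, which no pair met, so 4 was used. Named genes are those of the gene lists and markers, and up to 10 in each direction per comparison with the most extreme ratios. These had at least 100 CPM in the higher library, an interval without 1, no member with over 50% of the UMIs, and a level there not below that of other barcodes. Doublet scores came from Scrublet in scanpy 1.11.5. Its automatic threshold called 52, 4, 6, 1, 1 and 0 barcodes (WT sham, KO sham, WT 24 h, KO 24 h, WT 72 h, KO 72 h) and was not used. An alternative left out the highest scores at the loading rate, and otherwise no doublets were removed. The members and gene lists were chosen with earlier results of these data known. Gene positions are from GENCODE on GRCm38.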

Additional observations from a re-analysis of the deposited data

Results flagged for a closer look

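In the KO 72 h library, 12 barcodes of at least 500 but under 800 UMIs met the marker rule, and the other 5 libraries held 0 such barcodes.

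Several listed genes were at least 2-fold apart in opposite directions in the 2 genotypes, and these differences between genotypes were not tested. Between 24 h after ligation and sham, the log2 ratio was -1.70 in WT and 2.23 in KO for Ccl2, a monocyte chemoattractant, and 2.01 and -3.11 for Col4a2, of basement membrane collagen. It was 1.57 and -1.55 for the transcription factor Klf4, -1.22 and 1.12 for the galectin Lgals1, and -3.25 and 1.5 for the lubricant Prg4. Between 72 h and 24 h, it was -1.28 in WT and 2.07 in KO for Aldh1a1, which oxidises retinal, -2.74 and 2.14 for Col4a1, the partner of Col4a2, and -5.28 and 3.24 for Igfbp5, which binds insulin-like growth factors. Each counting interval of a ratio (not log2) left out 1, but some were wide or reached within 2-fold. For 24 h against sham it ran from 0.00286 to 0.681 for Col4a2 in KO, where the 24 h level was 17.0 CPM. It ran from 0.0899 to 0.923 for Klf4 in KO and from 0.0909 to 0.841 for Ccl2 in WT. For 72 h against 24 h it ran from 1.41 to 22.2 for Col4a1 in KO. Several of these genes rested on few barcodes. Without the gene's richest barcode in the library where it was higher, the KO ratio was -0.19 for Ccl2 and -0.88 for Lgals1, so that the opposite direction was lost for both. The log2 ratio came to less than 2-fold for Klf4 in both genotypes (0.36 in WT, -0.78 in KO), for Lgals1 in WT (-0.30), for Prg4 in KO (0.54) and for Aldh1a1 in WT (-0.84). With the 4 deep KO 72 h members, Igfbp5 stood at 35.0 CPM against 34.1 CPM at 24 h, with 4 and 2 UMIs, so that the higher level in KO rests on the shallow barcodes.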

How the results depend on the processing

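No paired analysis was possible because each group is 1 library. With 4 to 14 members in most libraries, a single barcode can set a gene's level. The cause of each shift below was not tested, apart from fewer genes or members entering. Of the medians of gene lists under the alternatives, 148 moved by less than 0.5 (the sham mesothelial median, near 0, changed sign among them), 28 moved further and 3 reversed. Of the single-gene ratios 344 held, 87 moved and 7 reversed. Taking members of at least 5000 UMIs only, dividing them by all such barcodes, and leaving out the doubted WT 24 h and KO sham members, were chosen after seeing the data.

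For each 100 fibroblast cells there were 2.16, 3.15, 2.99, 2.45, 7.03 and 9.06 members (WT sham, KO sham, WT 24 h, KO 24 h, WT 72 h, KO 72 h). Of barcodes without leukocyte UMIs, members were 0.371% (WT 24 h), 0.334% (KO 24 h), 0.901% (WT 72 h) and 1.76% (KO 72 h). Without members holding markers of other cell types the shares were 0% (WT 24 h), 0.0147% (KO 24 h) and 0.132% (KO 72 h), and without the highest Scrublet scores 0% in KO 24 h. With barcodes thinned to 800 UMIs they were 0.0672% (WT 72 h) and 0.376% (KO 72 h). The KO 72 h share was 0.565% with at least 5 rule UMIs, 0.696% with at least 3 rule genes, 0.696% with 0 UMIs of Cdh5, Csf1r and Ptprc, and 0.0753% with members of 5000 UMIs or more. With members and barcodes both of 5000 UMIs or more, the shares were 0.373% (WT sham), 0.561% (KO sham) and 0.372% (KO 72 h).

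In the order KO against WT in sham, at 24 h and at 72 h, 24 h against sham in WT and in KO, and 72 h against 24 h in WT and in KO, the genes at least 2-fold apart numbered 51, 164, 192, 163, 157, 451 and 149 with 50 UMIs in the pair. They numbered 3621, 5223, 5387, 4365, 6139, 6126 and 5908 with 1 UMI, and 15, 15, 102, 19, 29, 26 and 99 with members thinned to 800 UMIs. Without each gene's richest barcode the first 4 of these were 159, 295, 418 and 301. Other counts beyond 1.5 times were 508 in sham by the mean CPM per barcode, 306 for KO against WT at 24 h without the doubted members, 298 at 72 h without other cell types' markers, 348 for 24 h against sham and 318 for 72 h against 24 h in KO with 0 UMIs of the capped genes, and 306 for the latter at 5000 UMIs or more.

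The mesothelial median for KO against WT was 0.63 in sham when thinned, a reversal, and the interferon median there was 0.26 by the mean per barcode. At 72 h it was 1.95 with 0 capped UMIs, 0.69 without other cell types' markers and 0.58 thinned. For WT 72 h against 24 h it was -0.77 with 1 UMI in the pair, -1.03 without the richest barcode and -1.0 thinned. For KO against WT at 72 h, the dissociation median was -2.79 without other cell types' markers, -2.37 at 5000 UMIs or more, -0.40 by the mean per barcode and -0.42 without the richest barcode. The interferon median was -0.29 without other cell types' markers, a reversal, and 0.33 by the mean per barcode. The complement median was 1.70 with 3 rule genes, 1.63 with 0 capped UMIs and 0.14 without other cell types' markers. For 72 h against 24 h in WT, the matrix median was 1.67 thinned, and the mesenchymal one 1.14 with 0 capped UMIs, 1.22 without the doubted member, 1.38 by the mean per barcode, 1.18 with 1 UMI, 1.22 without the richest barcode and 0.74 thinned. In KO the matrix median was 0.27 with 1 UMI and -0.046 thinned, a reversal, and the mesenchymal one 0.64 with 0 capped UMIs, 0.96 by the mean per barcode, 0.88 with 50 UMIs, 0.46 with 1 UMI and 0.10 thinned.

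The reversed log2 ratios of single genes were 0.19 for Wt1 in WT (72 h against 24 h) and -0.19 for Ccl2 in KO (24 h against sham) without the richest barcode, and -0.060 for Lcn2 in WT (24 h against sham) by the mean per barcode. For KO against WT at 72 h they were -0.42 for Krt18 thinned, -2.73 for Saa3 at 5000 UMIs or more, and -0.51 for Wt1 and -0.39 for C3 without other cell types' markers. Scrublet scores left 0 KO 24 h members and other cell types' markers left 0 WT and 1 KO member at 24 h, so comparisons with these libraries gave no value there.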
